A study of Mus musculus with 24 samples.

Results

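CYTB (gene 17711) encodes cytochrome b, the mtDNA-encoded subunit of respiratory complex III, which passes electrons from ubiquinol to cytochrome c. In the mm10 reference (GRCm38) it lies at chrM:14145-15288, 1144 nt read from the L strand and placed between the tRNA genes for glutamate and threonine. All listed cytosines within these bounds were taken, on either strand. They numbered 447, of 5829 listed over the 16299 bp of mtDNA. The L strand of the gene held 308 of them and the H strand 139, which is every cytosine of the reference within these bounds. The gene had 24 CG pairs, and the other 284 L-strand and 115 H-strand cytosines were in CH sequences (H = A, C or T).

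Bisulfite converts unmodified cytosines to uracil and leaves 5-methylcytosine (5mC) as it is, so a cytosine still read as C can be methylated or can have escaped the reaction. For the L strand the paper raises a further possibility. Copies of H-strand fragments without cytosine, made during library synthesis, could align to the L strand and be counted as unconverted. This was not tested here. The strands of mtDNA differ in composition, and the L strand is rich in cytosine and poor in guanine. In CYTB, 26.9% of its bases were cytosine and 12.2% were guanine.

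PBAT (post-bisulfite adapter tagging), which adds the sequencing adaptors once bisulfite treatment is over, was used for all 24 libraries. ESC libraries (10) came from 3 preparations of E14 mouse embryonic stem cells grown on irradiated STO feeder cells. Their medium (2i-LIF) held leukemia inhibitory factor and inhibitors of MEK and GSK-3β. Brain and liver libraries (5 each) came from 2 preparations per tissue of mice labelled C57BL/6J, whose ages and number per preparation are not given in the sources used here. Synthetic mtDNA (4 libraries), a PCR product free of 5mC copied from native mtDNA, was a single preparation. Native mitochondria were treated with nuclease before extraction. Native mtDNA was cut with BglII, whose single site in the reference starts at 15335, 47 nt past the end of CYTB, and synthetic mtDNA was made to resemble the cut form. E1, E2, B1, L1 and S1 were treated for 5, 15, 40 and 60 min, B2 and L2 for 60 min, and E3 for 60 and 90 min. A library is named by source, preparation and minutes, so B2_60 is brain preparation 2 at 60 min. Different preparations are the replicates here, with 3 ESC, 2 brain, 2 liver and 1 synthetic at 60 min.

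The rate of a cytosine is the share of its reads, in percent, that still show C, and sites with fewer than 10 reads were left out. After 60 min, all 139 H-strand cytosines of the gene passed this minimum in every library, with a median of 176 to 1264 reads per cytosine. On the L strand only 61 to 233 of the 308 passed, and the median over all listed L-strand cytosines was 3 to 54.5 reads. B2_60 was the library with 61 covered sites and 3 reads, and S1_60 the library with 233 and 54.5. No library passed the minimum at 72 L-strand cytosines, and 61 were covered in all 8 libraries. A count of 3 unconverted reads was the least taken to show a rate, and at the typical (median) depth of the covered sites it corresponds to 2.97 to 15.4% for L-strand and 0.237 to 1.70% for H-strand cytosines. These floors cover counting error only. No pair of the 24 libraries had identical coverage. B2_60 on the L strand and E1_15 on either strand stood apart from the other libraries of their duration. Results that rest on B2_60 are given with and without it, and E1_15 enters none of the tests.

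In the deposited values, the L strand of CYTB was divided into stretches read as unconverted and stretches read as converted. Of the 182 L-strand cytosines covered in at least 4 of the 8 libraries of 60 min, 52 had a mean rate of 90% or more, 117 had a mean under 10%, and 13 lay between. Of the former, 51 fell into 4 runs of at least 5 successive cytosines, called islands here. The runs were defined from these rates, so their rates are given without a test. Reads at least 90% unconverted, which the study left out of its rates, appear to be still in these values. With such reads left out, the paper reports nearly complete conversion of the L strand in native and synthetic mtDNA. The L-strand rates given here are much higher. Over the rest of mtDNA the L-strand mean was 29.5 to 39.7% in the native libraries of 60 min and 29.1% in S1_60. The paper also sequenced clones from ESC mtDNA cut with DraI, over a part of the gene that holds islands 2 and 3. There it found nearly all cytosines of either strand converted. The L-strand sequences of the islands in the reference, with 10 nt on either side, are shown because cytosines were read as unconverted there. Capitals mark the cytosines of an island with a mean rate of 90% or more. The last sequence is, for contrast, a stretch of 60 nt in which every one of 19 cytosines had a mean under 5%.
Island 1, chrM:14147-14208, L strand: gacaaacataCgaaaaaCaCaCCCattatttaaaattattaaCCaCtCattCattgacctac
Island 2, chrM:14902-14964, L strand: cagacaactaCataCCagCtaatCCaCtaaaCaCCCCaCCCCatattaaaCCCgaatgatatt
Island 3, chrM:15019-15088, L strand: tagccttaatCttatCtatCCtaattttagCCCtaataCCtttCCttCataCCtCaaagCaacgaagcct
Island 4, chrM:15217-15254, L strand: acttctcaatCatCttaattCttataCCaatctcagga
Converted stretch, chrM:14563-14622, L strand: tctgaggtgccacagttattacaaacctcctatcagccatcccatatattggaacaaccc

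Island 1 covered nt 13 to 54 of the gene and had 11 cytosines and 1 guanine. Its mean rate was 97.5% ± 2.53 (SD, n = 8 preparations), from 93.8% in E3_60 to 100% in E2_60 and B2_60. Only 2 of its cytosines were covered in B2_60 and 6 in E2_60, so the 100% there rests on few sites.

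Island 2, at nt 768 to 810, had 19 cytosines, all covered in every library, with a median of 172 to 458 reads. It was the most deeply read of the 4. Its rates were 93.8% in E1_60, 99.7% in E2_60, 98.1% in E3_60, 99.6% in B1_60, 99.97% in B2_60, 99.3% in L1_60, 99.01% in L2_60 and 98.7% in S1_60. Synthetic mtDNA thus lay within the range of the native preparations.

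Island 3, at nt 885 to 934, had 16 cytosines and a mean of 99.02% ± 0.916 (SD, n = 8), with S1_60 at 97.9% and the native libraries at 97.4 to 99.8%. Island 4, at nt 1083 to 1100, had 5 cytosines and no guanine. Its rate was 97.7 to 100% in E1_60, E2_60, E3_60, B1_60, B2_60 and L1_60. In L2_60 it was 72.7%, and in S1_60 it was 85.1%, at median coverages of 57 and 97 reads. These were the lowest island rates of the 60 min libraries and also the most deeply read in this island. The converted stretch, at nt 420 to 478, had a rate of 0 in E2_60 and B2_60 and of at most 2.61% in the others. It held 8 guanines in its 60 nt.

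**Figure D1:**
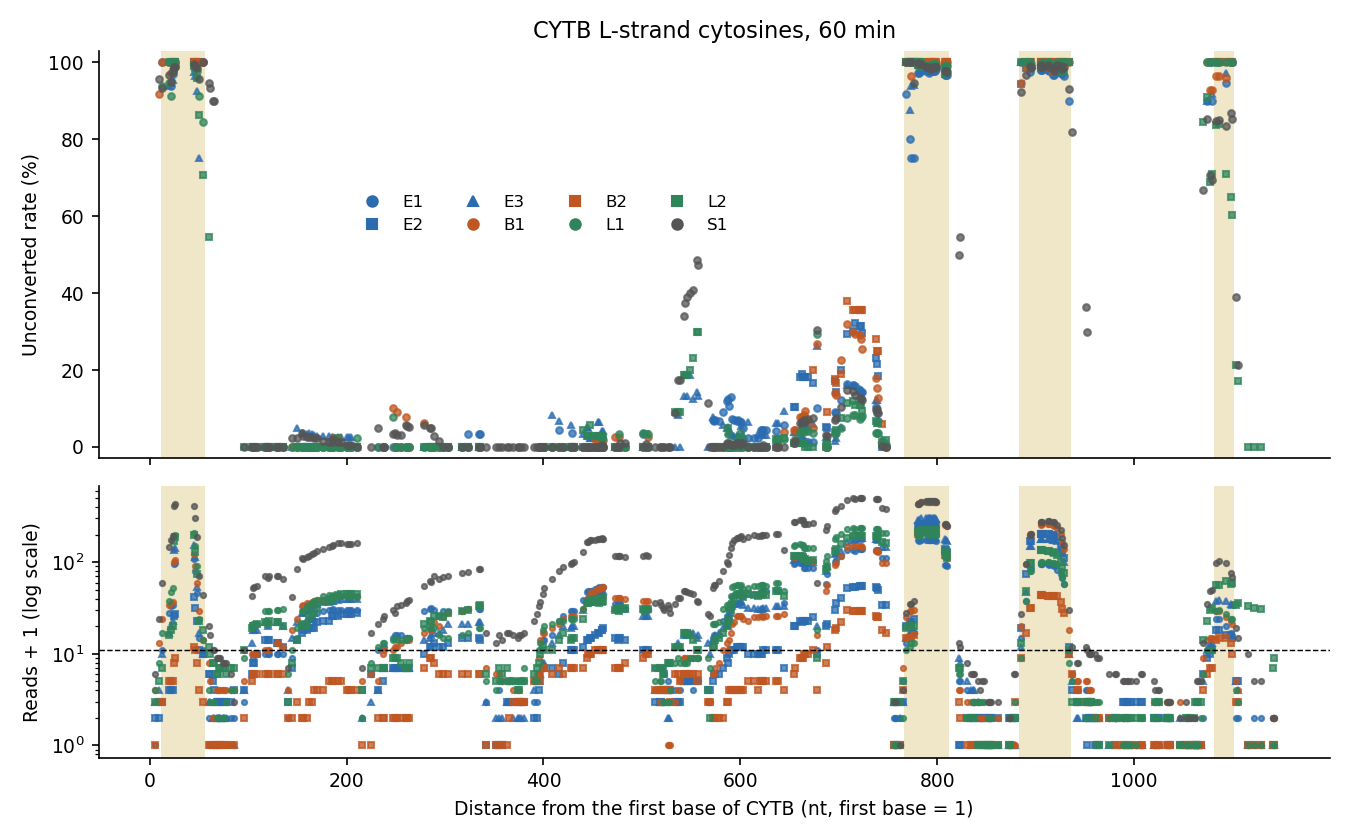
Unconverted rate (upper panel, %) and number of reads plus 1 (lower panel, log scale) of each L-strand cytosine of CYTB against distance from the first base of the gene, for the 8 libraries of 60 min. Shaded bands are the 4 islands, the dashed line marks 10 reads, and cytosines below it have no rate. Library means are 93.8% or more in the first 3 bands for native and synthetic mtDNA, with L2_60 (72.7%) and S1_60 (85.1%) lower in the last band, and near 0 over most of the rest, while stretches between the later bands hold few reads.

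The same division was visible in segments of 100 nt counted from the first base. The highest L-strand means at 60 min were 97.8% ± 3.90 (SD, n = 8) in segment 10 (chrM:15045-15144) and 97.5% ± 4.25 (n = 8) in segment 9 (chrM:14945-15044). The lowest were 0.202% ± 0.534 (n = 7) in segment 4 (chrM:14445-14544) and 0.484% ± 0.743 (n = 7) in segment 2 (chrM:14245-14344), where B2_60 had no covered site. The highest means rest on part of the sites. Only 11 to 15 of the 31 cytosines of segment 10, and 6 to 9 of the 26 of segment 9, had 10 reads, and the others were not measurable at this depth.

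The L-strand cytosines with the highest means among those covered in all 8 libraries were L15066 (99.4% ± 0.824), L14928 (99.4% ± 0.765) and L15051 (99.4% ± 0.755; SD, n = 8 for each). L15066 and L15051 lie in island 3 and L14928 lies in island 2, and all are CH sites. L14928 was unconverted in 97.7% of 174 reads of E1_60, in 100% of 211 reads of B2_60 and in 99.6% of 458 reads of S1_60.

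Between these extremes lay 10 cytosines at nt 702 to 740, the only sites covered in all 8 libraries with a mean from 10 to 90%. The libraries differed here by several times in level. The mean over the 10 sites was 12.98% in E1_60, 26.7% in E2_60, 13.3% in E3_60, 24.2% in B1_60, 31.3% in B2_60, 6.23% in L1_60, 9.25% in L2_60 and 11.9% in S1_60. At L14852, which had the largest SD of these sites, 11 of 29 reads were unconverted in B2_60 (37.9%, 95% Wilson interval 22.7 to 56.0%), 46 of 144 in B1_60 (31.9%, 24.9 to 39.9%) and 15 of 51 in E2_60 (29.4%, 18.7 to 43.0%). In L1_60 the site was unconverted in 17 of 230 reads (7.4%, 4.67 to 11.5%), and in S1_60 in 70 of 475 (14.7%, 11.8 to 18.2%). The intervals of B1_60 and L1_60 did not overlap. B2_60 and E2_60, 2 of the 3 highest, had the fewest reads there. These sites were chosen for their spread after their values were seen, so no test is given, and the part of coverage in this order was not tested. After 5 min the mean over the 10 sites was 41.6 to 58.1%, and after 40 min it was 26.1% in E1_40 and 7.83 to 14.7% in the other 4 libraries.

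Local guanine number went with the rate on the L strand. Cytosines with 4 or fewer guanines within 25 nt on either side (110 sites) had a mean rate of 60.8% in S1_60 and 79.9% in B2_60, with the remaining 6 native preparations at 55.9 to 65.0% after 60 min. Those with 5 to 8 guanines (132 sites) had 12.9% in S1_60, 42.7% in B2_60 (16 covered sites) and 8.90 to 14.5% in the others. Those with 9 or more (66 sites) had 0 to 1.10% in the 7 libraries in which any was covered, and B2_60 covered none. In these 7 preparations, the guanine-poor sites were higher by 60.6 percentage points (55.8 to 64.5, higher in 7 of 7, exact sign-flip permutation test, two-sided, p = 0.0156, the smallest it can give). Synthetic mtDNA was among the 7, with 60.8% against 0.546%. The sites are the same in every preparation, so this p does not measure the spread between sites.

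Coverage differed with guanine number as well. The median coverage of listed sites was 7 to 163 reads where guanines were few and 3 to 32.5 where they were many, and its part in the rates was not tested. When cytosines were grouped by the length of the guanine-free run that holds them, a grouping made after the values were seen, the mean was 4.33% ± 2.52 (SD, n = 8) for runs of up to 9 nt, 11.5% ± 9.37 for 10 to 19 nt, 51.2% ± 17.4 for 20 to 29 nt and 66.9% ± 5.28 for 30 nt or more. The islands did not fill all such runs, since the sites in runs of 30 nt or more had rates of 60.6 to 77.8%.

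**Figure D2:**
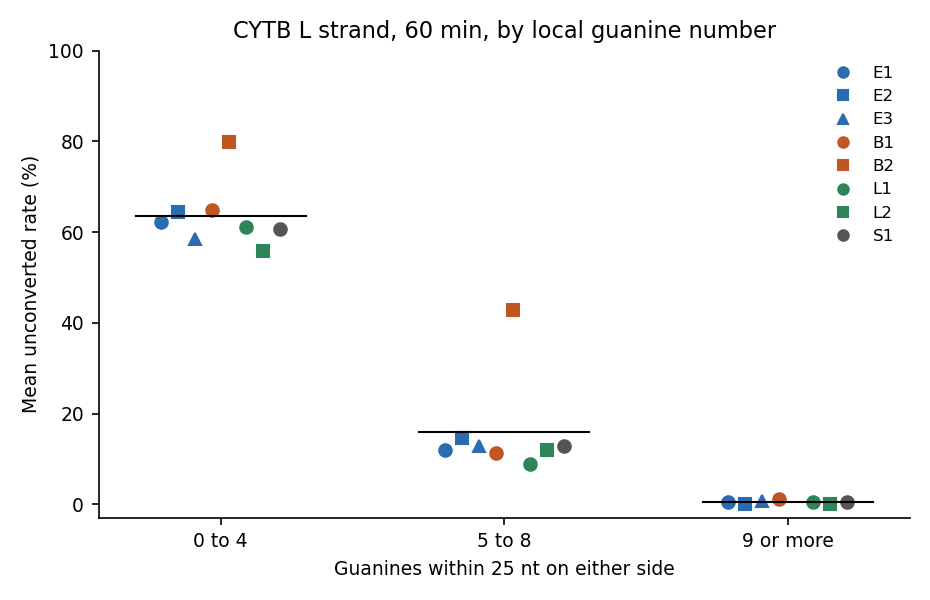
Mean unconverted rate (%) of CYTB L-strand cytosines after 60 min, grouped by the number of guanines within 25 nt on either side. Points are preparations, bars their mean. The 8 preparations sit at 55.9 to 79.9% for 0 to 4 guanines, and the 7 with covered sites sit at 0 to 1.10% for 9 or more.

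On the H strand, the cytosines of the gene were almost fully converted after 60 min. The mean over the 139 sites was 0.417% in E1_60, 0.299% in E2_60, 0.521% in E3_60, 0.315% in B1_60, 0.604% in B2_60, 0.676% in L1_60, 0.420% in L2_60 and 0.435% in S1_60. Synthetic mtDNA lay in the middle of the native values. The L-strand mean was higher than the H-strand mean in 8 of 8 preparations, by 35.8 percentage points on average (28.2 to 69.6, exact sign-flip permutation test, two-sided, p = 0.00781, the smallest it can give). On the 61 L-strand and 139 H-strand sites shared by all 8 libraries the difference was 65.8 points. Of these 61 L-strand sites, 63.9% lie in the islands, so that value depends on which sites were covered.

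No H-strand site approached the level of the islands. The highest mean was 7.0% ± 9.54 (SD, n = 8) at H14511, followed by H15253 at 2.39% ± 1.74 and H14263 at 2.33% ± 0.792, all CH sites, and 6 of the 139 sites had a mean of 1% or more. H14511 was unconverted in 15 of 50 reads of L1_60 (30%, 95% Wilson interval 19.1 to 43.8%) and in 0 to 6.7% in the other 7 libraries of 60 min. It was also at 23.9% in S1_40 (26 of 109 reads, 16.8 to 32.7%) and 17.4% in L1_40 (12 of 69 reads, 10.2 to 28.0%), so the high values occurred in native and synthetic mtDNA. Without this site, chosen after its values were seen, the H-strand mean of L1_60 was 0.463%.

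The comparison of native with 5mC-free synthetic mtDNA asks whether the unconverted cytosines of CYTB are methylated. It uses the deposited values, in which reads left out by the study appear to remain. Its L-strand means are therefore not the rates reported in the paper, where the L strand was nearly fully converted. On the L strand after 60 min, native preparations had a mean of 37.4% ± 14.7 (SD, n = 7) and the synthetic preparation 28.6%. All 7 native preparations lay above it, but the difference of 8.77 percentage points was within their SD (exact permutation test, two-sided, p = 0.25). Without B2_60 the native mean was 31.9% ± 2.87 (n = 6), and the difference of 3.31 points was larger than that SD (same exact permutation test, p = 0.286). On the 61 shared sites the means were 66.5% ± 2.58 (n = 7) and 64.6%, a difference of 1.96 points (p = 0.75, same exact permutation test). On the H strand the means were 0.464% ± 0.142 (n = 7) and 0.435%, and 3 of 7 native preparations lay above the synthetic value (difference 0.0292 points, exact permutation test, p = 1.0). With 1 synthetic preparation, 0.125 is the smallest p this exact permutation test can give, so it could not pass 0.05.

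Native and synthetic mtDNA were also set side by side at single sites. Across the 61 shared L-strand sites, which share libraries, reads and base composition, the native mean and the synthetic rate had a Pearson r of 0.997. Of these sites, 63.9% lie in the islands, which were defined from the same rates, S1_60 included. A high r was thus largely set in advance and does not measure how alike the profiles are. The difference was at most 5 percentage points at 51 of the 61 sites and ranged from -4.97 to 12.4 points. At 35 sites both were at 90% or more, and at 4 sites only one was. On the H strand the differences ranged from -0.886 to 1.79 points.

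**Figure D3:**
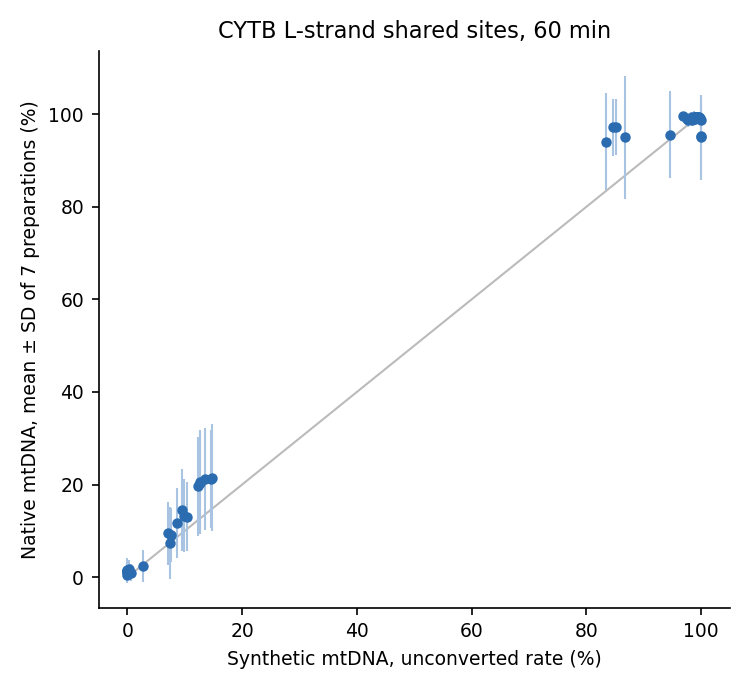
Mean unconverted rate of 7 native preparations (vertical, %, bars are SD) against that of synthetic mtDNA (horizontal, %) at the 61 CYTB L-strand sites covered in all 8 libraries of 60 min. The grey line is equality. Sites group near 0, between 7 and 15% in synthetic mtDNA, and near 100%, and 51 of 61 lie within 5 points of the line.

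Single sites were compared by a quasi-binomial logistic model fitted to all sites of mtDNA with enough covered preparations. None of the 167 L-strand and 139 H-strand sites of CYTB tested had a Benjamini-Hochberg adjusted p under 0.05 between native and synthetic mtDNA, and 5 had an unadjusted p under 0.05. The background was the same, with 0% of 2248 L-strand and 0% of 1863 H-strand sites of mtDNA called. Fisher's exact test on summed reads called none in CYTB, with 25 at an unadjusted p under 0.05, and 0.997% of all 4111 sites of mtDNA. A fit by limma on the percent called 7 of 306 in CYTB (2.29%), below its background of 4.48% of 4111 sites of mtDNA. They were L14429, L14430, L14433, L14438, L14622, L14627 and H14202. At all 7, every native preparation with 10 or more reads was at 0%, and synthetic mtDNA was at 0.2 to 5.0%. Their adjusted p in the logistic model was 0.965.

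ESC and tissue mtDNA were compared to see whether CYTB differs between pluripotent and differentiated cells. The L-strand mean after 60 min was 33.3% ± 3.06 (SD, n = 3) in ESCs and 40.5% ± 19.9 (n = 4) in tissues, a difference of -7.25 percentage points (exact permutation test, two-sided, p = 0.943, smallest possible 0.0286). This difference turned to 2.63 points without B2_60 (exact permutation test, p = 0.3), and it was -0.426 points on the 61 shared sites (p = 0.886, same exact permutation test). By tissue, brain was at 33.5 and 70.2% and liver at 28.97 and 29.5%, so the tissue values overlapped those of ESCs. The H-strand means were 0.412% ± 0.111 (n = 3) and 0.504% ± 0.165 (n = 4), and their difference of -0.0914 points was within the SDs (exact permutation test, p = 0.4). None of 157 L-strand and 139 H-strand sites of CYTB was called by the logistic model, 5 had an unadjusted p under 0.05, and the background was again 0% of 2055 L-strand and 0% of 1840 H-strand sites. Replacing the model by limma called none in CYTB and 0% of mtDNA sites, with 15 at an unadjusted p under 0.05. Fisher's exact test on summed reads called 1 site of CYTB, which was also the only call among 3895 sites of mtDNA (0.0257%). It was L15244 in island 4, at 100% in all 3 ESC preparations, in B1_60 and in L1_60 and at 60.3% in L2_60, so that call rests on L2_60.

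B2_60 had by far the highest L-strand mean of the gene, and the sites it covered were a different set. Of its 61 covered cytosines, 63.9% lay in the 4 islands, against 21.9 to 32.9% in the other 7 libraries of 60 min. The 61 sites were also covered in every other library. On them, the other native libraries had a mean of 65.9% ± 2.22 (SD, n = 6), from 63.7% in L2_60 to 69.0% in E2_60, and B2_60 had 70.2%. The difference shrank from 38.2 percentage points, with each library on its own sites, to 4.23 points on shared sites. B2_60 was still the highest of the 7 there, and 0.143 is the smallest p that 1 preparation against 6 can give in an exact permutation test. The shrinkage depended on the setting. This L-strand difference was 16.6 points with a coverage minimum of 20, 35.7 with a minimum of 30 and 19.3 with reads pooled over sites. These settings depend on the depth of each library, which was lowest in B2_60, and the part of depth was not tested. On the H strand, where all sites were shared, B2_60 lay below L1_60 and above the other 5 native libraries.

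**Figure D4:**
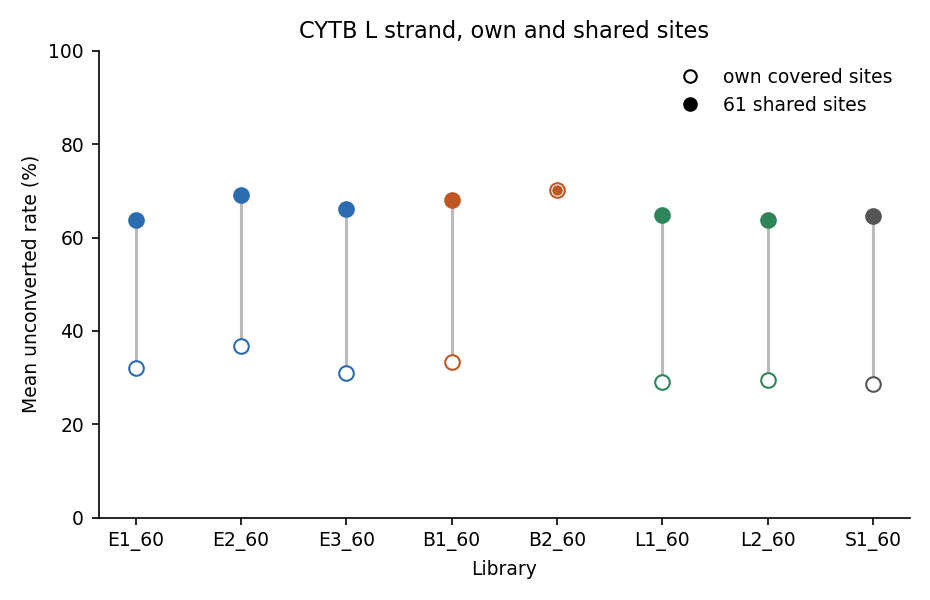
Mean unconverted rate (%) of CYTB L-strand cytosines in the 8 libraries of 60 min, on each library's own covered sites (open points) and on the 61 sites covered in all 8 (filled points). On its own sites B2_60 stands at 70.2% and the others at 28.6 to 36.7%, whereas on shared sites all 8 lie between 63.7 and 70.2%.

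The time course shows how conversion of the gene proceeded. On the L strand the mean was 74.2% in E1_05, 80.2% in E2_05, 70.1% in B1_05, 72.6% in L1_05 and 73.2% in S1_05. After 60 min the same preparations were at 28.6 to 36.7%, and the mean had decreased by 42.1 percentage points (5 of 5 lower, exact permutation test, two-sided, p = 0.00794, the smallest it can give). The sites were not the same, with 260 to 283 covered at 5 min and 140 to 233 at 60 min. The difference was -33.7 points on the sites shared by these 10 libraries and -28.6 points with reads pooled over sites. On the H strand the mean fell from 30.9% ± 2.03 to 0.428% ± 0.151 (SD, n = 5 each), by 30.4 points (same exact permutation test, p = 0.00794). With the preparation as a block, the exact sign-flip permutation test gave p = 0.0625 on either strand, which is the smallest that 5 pairs allow. Over the 16 main comparisons of library means reported here, the Benjamini-Hochberg adjusted p was 0.0254 for the 5 with p under 0.01 and 0.0417 for the comparison by guanine number. Those 5 include the 60 minus 5 min tests of both strands, which ignore the pairing of libraries by preparation. The adjustment was not repeated with the paired p.

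Most of the fall was complete at 15 min. E2_15, B1_15, L1_15 and S1_15 had L-strand means of 31.8 to 34.5% and H-strand means of 3.03 to 3.26%. E1_15 stood apart, with an L-strand mean of 47.3% and an H-strand mean of 10.2%, and its H-strand mean over the rest of mtDNA was likewise 10.6%. From 40 to 60 min neither strand changed beyond the spread of preparations. The difference was 0.370 points on the L strand (3 of 5 in this direction, exact permutation test, p = 0.857) and -0.0161 points on the H strand (exact permutation test, p = 0.825). At 5 min, island 1 was at 98.1 to 100%, island 2 at 98.8 to 99.9%, and island 4, the lowest of the 4 at 60 min, at 90.0 to 99.3%, whereas the converted stretch was at 32.2 to 50.5%.

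Longer treatment was available for E3 only. On the 118 L-strand sites covered in E3_60 and E3_90 the mean was 38.2% and 37.1%, and 55 sites were higher and 58 lower after 90 min. On 138 shared H-strand sites it was 0.525% and 0.940%, with 84 sites higher and 36 lower. With a single preparation this has no replicate check.

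**Figure D5:**
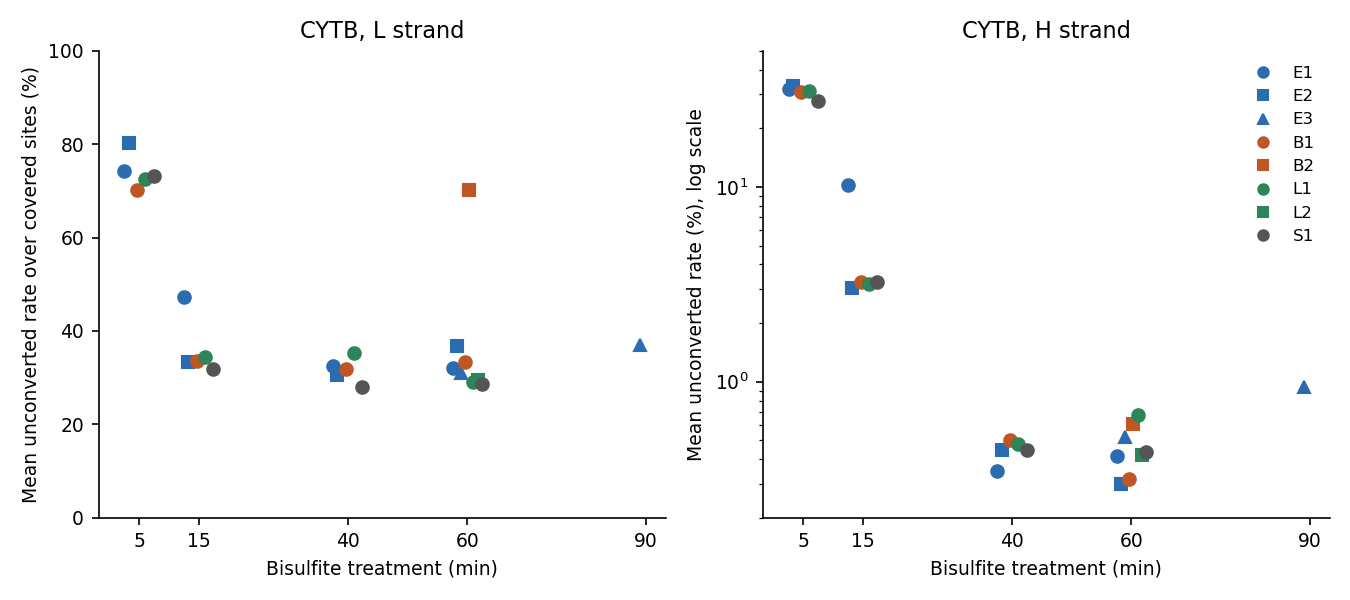
Mean unconverted rate of CYTB on the L strand (left, %) and the H strand (right, %, log scale) against minutes of bisulfite treatment. Each point is 1 library, shifted slightly sideways for visibility, and colours and shapes give the preparation. L-strand means lie between 28.0 and 37.1% from 15 min on apart from E1_15 and B2_60, while H-strand means fall below 1% by 40 min.

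5mC in mammalian nuclear DNA lies mainly at CG pairs, so CG and CH sites were compared. On the L strand, CG sites had 11.9 to 19.1% and CH sites 29.7 to 37.6% in the 7 libraries other than B2_60, in which a single CG site was covered, at 100%. CG was lower by 10.3 percentage points over all 8 (7 of 8 lower, exact sign-flip permutation test, p = 0.125) and by 16.1 points without B2_60 (exact sign-flip permutation test, p = 0.0156). On the sites shared by all 8, where that same single CG site stands against 60 CH sites, the sign turned to 33.0 points (exact sign-flip permutation test, p = 0.00781). On the H strand, CG sites had 0.348% ± 0.0763 and CH sites 0.484% ± 0.147 (SD, n = 8), CG being lower in 8 of 8 (exact sign-flip permutation test, p = 0.00781). That difference of -0.136 points was -0.0786 points without H14511 (exact sign-flip permutation test, p = 0.0469) and -0.0102 points with reads pooled over sites (exact sign-flip permutation test, p = 0.422).

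The 3 CG pairs with the highest L-strand means were unconverted on the L strand only. L14954 in island 2 was at 98.7% ± 1.29 (SD, n = 8) and its H-strand partner H14955 at 0.213% ± 0.0991. L14157 in island 1 was at 96.8% in the 4 libraries that covered it, with H14158 at 0.05%. L15081 was covered in S1_60 alone, at 81.8% of 11 reads, with H15082 at 0.525%. Of the 11 CG pairs covered on the L strand in at least 4 libraries, 9 had a mean under 10% and 2 had 90% or more, and no H-strand CG site had a mean above 0.775%.

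By codon position of the reading frame, L-strand means at 60 min were 41.7% ± 13.5 at the 88 sites of position 1, 36.6% ± 14.3 at the 92 sites of position 2 and 32.0% ± 13.7 at the 128 sites of position 3 (SD, n = 8). Each of the 8 preparations had the same order. The order is given without a test, since the sites of a position are the same in every preparation.

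Against the rest of mtDNA, CYTB was lower on the H strand in 8 of 8 preparations, with 0.461% ± 0.132 against 0.599% ± 0.128 (SD, n = 8, difference -0.139 points, exact sign-flip permutation test, p = 0.00781). On the L strand the gene had 36.3% ± 13.9 and the rest 31.9% ± 3.38, and 4 of 8 preparations were higher in CYTB (difference 4.40 points, exact sign-flip permutation test, p = 0.32). That difference was 0.682 points without B2_60. It was 27.8 points on sites shared by all 8 libraries (exact sign-flip permutation test, p = 0.00781) and -3.92 points when sites of 90% or more were left out (exact sign-flip permutation test, p = 0.102). The shared L-strand sites of CYTB are the 61 covered in B2_60, and 63.9% of them lie in the islands. The 27.8 points thus depend on which sites were covered, and their p cannot tell whether the gene as a whole differs. Among the 15 genes with at least 50 listed L-strand cytosines, CYTB ranked 7 in L-strand mean at 60 min, between ND5 (51.9% ± 6.45) and ND4L (35.6% ± 7.43). Without B2_60 its mean was 31.5% ± 2.91 (SD, n = 7) and it ranked 8, below ND4L at 34.6% ± 7.45 and above ND1 at 29.8% ± 2.20. The gap to ND4L was within the SD of ND4L but larger than that of CYTB, and the gap to ND1 was within either SD. ND5, at 50.2% ± 4.39 without B2_60, lay above CYTB by more than either SD. In H-strand mean CYTB ranked 8 of 11 genes, next to ND2 (0.464% ± 0.0974) and ND5 (0.425% ± 0.0840), from which it did not differ beyond its SD, and 5 without B2_60. The 12S rRNA gene mt-Rnr1 had the highest H-strand mean, 1.51% ± 0.703.

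Across the 13 libraries of 40 and 60 min, the L-strand means most like those of CYTB were those of COX2 (Pearson r = 0.971), ATP6 (0.886) and ND4 (0.778), genes for subunits of complex IV, ATP synthase and complex I. These points share preparations and coverage, and B2_60 was the highest of the 8 libraries of 60 min in each of the genes named. Without B2_60 (n = 12), r was 0.522 for COX2, 0.317 for ATP6 and 0.632 for ND4.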

How the data were processed

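The 24 libraries were made from mouse mtDNA by PBAT. The authors sequenced them on a MiSeq, trimmed the first reads with Trim Galore, mapped them to mm10 mtDNA with Bismark and derived the state of each cytosine with Perl scripts. The versions used for these libraries are not given in the sources used here. The authors deposited, for each cytosine, the percent of its reads that were unconverted, to 1 decimal, and the coverage, a raw count of reads. Reads at least 90% unconverted, which the study left out of its rates, appear to be still in these values.

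The members, lists and tests were chosen with earlier results of these data known. CYTB bounds came from the RefSeq annotation of GRCm38, whose mtDNA holds a cytosine of the stated strand at every listed position. A site needed a coverage of 10 reads, and a library's rate is the mean over its sites. Unconverted reads were the percent times the coverage, rounded. Library means were compared by exact permutation or sign-flip tests, two-sided. Sites were tested by a quasi-binomial logistic model with dispersion of at least 1 and Benjamini-Hochberg adjustment over all sites of both strands covered in at least 4 native preparations and the synthetic one, or in at least 2 ESC and 3 tissue preparations. In simulated data for native against synthetic mtDNA (4111 sites without added variation between preparations), 200 sites were changed in native mtDNA. Sites of low rate were raised and sites of high rate were lowered. The model called 101 of 200 sites changed by 10 percentage points, 159 of 200 changed by 30, and no unchanged site. Wilson intervals (95%) and floors of 3 unconverted reads cover counting error only, and calls of a read are not independent. Nothing but the preparation separates replicates of a source, so p-values rest on the spread between preparations. Tests over native, tissue or all preparations pool sources, and their spread also holds differences between sources. The main tests between durations use the same preparations at both durations and ignore that pairing. Where strands, site classes, or the gene and the rest of mtDNA are compared, the cytosines are the same in every preparation. Those p-values do not measure the spread between sites.

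Named sites were the 3 with the highest 60 min mean per strand among those covered in all 8 libraries, the 3 CG pairs with the highest L-strand mean, and any site with an adjusted p under 0.05 (at most 5 per comparison). The 2 highest and 2 lowest segments of 100 nt and the 3 genes with the highest Pearson r were also named. Other named sites were chosen after their values were seen. Islands needed at least 5 successive cytosines with a mean of 90% or more in at least 4 libraries. Libraries of a preparation at different durations are pairs by design, since they come from the same DNA. Alternatives were coverage minimums of 20 and 30, pooled reads, shared sites, sites of 90% or more left out, preparations left out, Fisher's exact test, limma 3.58.1 and replicate blocks. Python 3.11.15, numpy 2.4.6, scipy 1.17.1, pandas 2.3.3 and matplotlib 3.10.9 were used. λDNA reads were not analysed here.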

Additional observations from a re-analysis of the deposited data

Results flagged for a closer look

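Among the native libraries of each duration, 24 groups of values of CYTB (means, CG means and median coverage per strand) were examined for a library far from the others, and 7 were found. Chance flags about 1 in 20 such groups.

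E1_15 had an L-strand mean of 47.3%, with the other 3 native libraries of 15 min at 33.4 to 34.5%, and an L-strand CG mean of 45.5%, with the others at 21.8 to 25.7%. Its H-strand mean was 10.2% against 3.03 to 3.26%, and its H-strand CG mean 9.28% against 2.86 to 3.06%. These 4 values come from 1 library. E1_40 and E1_60, from the same preparation, were at 0.347% and 0.417% on the H strand.

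B2_60 had an L-strand mean of 70.2%, with the other 6 native libraries at 28.97 to 36.7%, and an L-strand CG mean of 100%, with the others at 11.9 to 19.1%. The CG mean rests on 1 covered CG site. B1_05 had a median of 95.5 reads per listed L-strand cytosine, with the other native libraries of 5 min at 66 to 67.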

How the results depend on the processing

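Of 215 values recomputed under an alternative, 191 kept their direction and their side of 0.05, or their count. For library means of native against synthetic mtDNA and of B2_60 against the other native libraries, the exact test could not pass 0.05. Their side was thus fixed in advance. Size did not enter this count. With a coverage minimum of 30, L-strand native minus synthetic went from 8.77 to 22.7 points, and B2_60 minus the others from 4.23 to 35.7. The cause of the changes was not tested. Differences below are in percentage points at 60 min. With reads pooled over sites, CYTB minus the rest of mtDNA on the L strand was 21.4 and CG minus CH on the L strand -8.52 (both then under 0.05), CG minus CH on the H strand was -0.0102 (no longer under 0.05), native minus synthetic on the H strand turned to -0.0450, and 60 minus 40 min turned to -2.55 (L strand) and 0.0277 (H strand). With sites of 90% or more left out, native minus synthetic on the L strand turned to -2.71, CYTB minus the rest to -3.92 and 60 minus 40 min to -3.52, and CG minus CH on the L strand was -3.74 (under 0.05). On sites shared by the 8 libraries, CYTB minus the rest on the L strand was 27.8 (under 0.05) and CG minus CH on the L strand turned to 33.0, and with a coverage minimum of 30 CYTB minus the rest was 15.4 (under 0.05). Of the shared L-strand sites of CYTB, 63.9% lie in the islands. Without H14511, an alternative chosen after seeing the data, 60 minus 40 min on the H strand turned to 0.0093. For single sites, limma called 7 of native against synthetic and Fisher's exact test 1 of ESC against tissue, where the logistic model called none.

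Leaving out each preparation in turn gave -11.1 to 2.63 for ESC minus tissue on the L strand, turned by leaving out B2_60, -16.1 to -8.82 for CG minus CH on the L strand, under 0.05 without B2_60, -1.08 to 2.06 (L strand) and -0.0691 to 0.0272 (H strand) for 60 minus 40 min, turned by leaving out E2 on either strand and B1 on the H strand, and -0.0060 to 0.0567 for native minus synthetic on the H strand, turned by leaving out L1_60. Every other difference kept its direction in these fits.

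With the preparation as a replicate block, 60 minus 5 min kept its values of -42.1 (L strand) and -30.4 (H strand) and lost the call, since 0.0625 is the smallest p of 5 pairs in the exact sign-flip permutation test. ESC and tissue preparations share only a number: over 1756 H-strand sites of mtDNA, the differences between numbers 1 and 2 had correlations of -0.141, -0.00630 and -0.0160 between the 3 sources. With that number as a replicate block, ESC minus tissue was -6.08 (L strand) and -0.146 (H strand), and no site was called. Depth limits the L strand most, where 72 of the 308 cytosines had too few reads in every library of 60 min.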
